A study of Homo sapiens with 9 samples.

Results

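Peaks of the SWI/SNF subunits ARID1A, ARID1B and ARID2 whose nearest gene was a long non-coding RNA (lncRNA) gene of either of 2 naming classes were examined in HepG2, an established human line derived from a hepatocellular carcinoma. In the first class the symbol of the nearest gene began with LINC and a digit, the form given to long intergenic non-coding RNAs. In the second it ended in -AS and a number, the form given to RNAs antisense to the gene named before the hyphen. Symbols that began with HOX were left out, which removed 4 peaks. The rule selected 528 of the 34575 ARID peaks, and 207 of the 12428 nearest-gene names. Of these, 221 peaks belonged to 62 LINC genes and 307 peaks to 145 -AS genes. The rule used gene names and no measured signal, but each name follows from the position of the peak.

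The cells were untreated, and the groups differed in the antibody used for chromatin immunoprecipitation followed by sequencing (ChIP-seq). Antibodies against ARID1A, ARID1B, ARID2 and SNF5 (also called BAF47 or SMARCB1) were each used on 2 replicates, and 1 input library, not used here, completed the 9 libraries. The authors merged the replicates of each antibody before calling peaks, so each subunit was represented by 1 list, with no replicate error and an unknown depth. Shares below carry Wilson 95% intervals that cover counting error over peaks alone, and each test compares LINC peaks with -AS peaks inside 1 list and not conditions. Effects of subunit, of antibody and of sequencing depth cannot be told apart. Peaks near 1 gene share a locus and are not independent.

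SWI/SNF complexes use ATP to move or evict nucleosomes, and act at promoters and at enhancers. ARID1A and ARID1B are mutually exclusive members of the BAF form, ARID2 belongs to the PBAF form, and SNF5 is a core member of both. Intergenic lncRNAs are transcribed from promoters of their own or from enhancer-like elements, whereas many antisense lncRNAs start close to the promoter of their sense gene and run in the other direction.

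The names were compared with Gencode v44 lifted to GRCh37, the assembly of the peak coordinates (hg19). Of the 62 LINC genes, 60 were matched by symbol or older synonym, and 54 were annotated there as lncRNA. LINC00094 and LINC00176 had become the protein-coding genes BRD3OS and C20orf204. Of the 145 -AS genes, 139 were matched and 135 were annotated as lncRNA. Among those annotated otherwise, AATK-AS1 and TOPORS-AS1 had become the protein-coding genes PVALEF and SMIM27. Genes now annotated as protein coding held 5 of the 221 LINC peaks and 7 of the 307 -AS peaks.

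Regions where peaks of all 3 ARIDs coincided are shown first, because they are where the 3 subunits can be compared on the same bases. For each class the 3 named genes with the most peaks were taken among those with a stretch shared by all 3 ARIDs and no annotated UTR of a coding gene in the 240-base window. Capitals mark bases inside a peak of all 3 ARIDs, and the sequences are the plus strand of GRCh37 from 5′ to 3′. The LINC windows were chr17:70409270-70409509 in an intron of LINC00511, chr17:41400839-41401078 in no annotated gene and nearest to LINC00854, and chr17:8124039-8124278 over an exon of LINC00324.
LINC00511: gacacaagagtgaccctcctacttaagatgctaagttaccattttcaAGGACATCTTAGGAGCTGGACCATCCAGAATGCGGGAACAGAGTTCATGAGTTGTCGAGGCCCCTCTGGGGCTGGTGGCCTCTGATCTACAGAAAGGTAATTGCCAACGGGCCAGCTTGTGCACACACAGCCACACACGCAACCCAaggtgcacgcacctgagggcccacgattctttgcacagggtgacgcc
LINC00854: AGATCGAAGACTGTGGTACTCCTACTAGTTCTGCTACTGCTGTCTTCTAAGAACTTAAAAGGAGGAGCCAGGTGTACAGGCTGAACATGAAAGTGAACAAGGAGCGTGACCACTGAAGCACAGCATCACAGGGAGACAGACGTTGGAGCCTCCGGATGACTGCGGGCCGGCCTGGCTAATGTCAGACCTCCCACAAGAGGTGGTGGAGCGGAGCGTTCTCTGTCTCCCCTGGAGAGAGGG
LINC00324: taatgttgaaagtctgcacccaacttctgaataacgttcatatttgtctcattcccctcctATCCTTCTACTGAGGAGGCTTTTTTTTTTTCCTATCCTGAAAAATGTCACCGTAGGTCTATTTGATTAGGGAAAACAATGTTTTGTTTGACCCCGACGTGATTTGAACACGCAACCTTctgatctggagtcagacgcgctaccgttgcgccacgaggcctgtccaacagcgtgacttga
The -AS windows were chr11:2009366-2009605 in an intron of MRPL23-AS1, chr20:30160874-30161113 over an exon of HM13-AS1 inside the HM13 gene, and chr2:70313459-70313698 over an exon of PCBP1-AS1.
MRPL23-AS1: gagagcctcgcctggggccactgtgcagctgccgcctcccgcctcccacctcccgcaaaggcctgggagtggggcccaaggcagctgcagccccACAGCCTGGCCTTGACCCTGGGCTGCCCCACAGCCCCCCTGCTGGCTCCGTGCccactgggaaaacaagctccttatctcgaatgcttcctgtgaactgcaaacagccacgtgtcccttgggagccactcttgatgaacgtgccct
HM13-AS1: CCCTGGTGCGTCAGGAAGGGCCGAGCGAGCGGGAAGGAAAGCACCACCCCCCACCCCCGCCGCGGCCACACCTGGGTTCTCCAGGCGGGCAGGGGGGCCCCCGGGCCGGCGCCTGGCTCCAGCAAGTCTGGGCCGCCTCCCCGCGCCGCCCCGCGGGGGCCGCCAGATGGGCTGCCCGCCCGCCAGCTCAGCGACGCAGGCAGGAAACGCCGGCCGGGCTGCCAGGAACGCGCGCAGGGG
PCBP1-AS1: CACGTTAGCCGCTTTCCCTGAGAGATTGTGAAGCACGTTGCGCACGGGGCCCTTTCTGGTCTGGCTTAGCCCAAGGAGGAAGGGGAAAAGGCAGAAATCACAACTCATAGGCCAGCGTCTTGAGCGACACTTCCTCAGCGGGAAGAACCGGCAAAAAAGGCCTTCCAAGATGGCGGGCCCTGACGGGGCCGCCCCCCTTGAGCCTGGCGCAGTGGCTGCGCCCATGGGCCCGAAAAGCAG
In the windows of LINC00854, HM13-AS1 and PCBP1-AS1 every base is in capitals, since the shared stretches were 390, 315 and 397 bp long. The shared stretches of LINC00511, LINC00324 and MRPL23-AS1 were 146, 118 and 53 bp long. The HM13-AS1 window was the most GC-rich of the 6 (79.2% G or C) and the LINC00324 window the least (44.6%).

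The first question was how the members were spread over the 3 lists. The ARID1A list held 73 LINC and 118 -AS peaks among 12852 peaks. The ARID1B list held 65 LINC and 72 -AS peaks among 8728. The ARID2 list held 83 LINC and 117 -AS peaks among 12995. Each list reached a similar number of LINC genes, 38 in ARID1A, 41 in ARID1B and 39 in ARID2. The -AS genes were fewer in the shorter ARID1B list, at 55, against 85 in each of the ARID1A and ARID2 lists.

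By nearest-gene name, LINC genes recurred between lists more often by count than -AS genes did. Of the 62 LINC genes, 24 (38.7%) were named in 1 list, 20 (32.3%) in 2 and 18 (29.0%) in all 3. Of the 145 -AS genes, 83 (57.2%) were named in 1 list, 44 (30.3%) in 2 and 18 (12.4%) in all 3. Over all 12428 names the shares were 45.7%, 33.2% and 21.1%. These shares stand side by side as a description, and the difference between the classes was not tested. Names also changed between lists at overlapping peaks, in 31.5% of -AS pairs and 8.64% of LINC pairs. Recurrence by name therefore undercounts -AS genes more. A region with all 3 ARIDs, whatever gene its peaks were named for, was found for 17 LINC genes (27.4%) and 20 -AS genes (13.8%). The share of all names with such a region is not given here, so this contrast is not read as a trait of either class. Among -AS genes named in exactly 2 lists, 28 of 44 were named by ARID1A and ARID2. The 20 LINC genes named in exactly 2 lists were spread more evenly, with 8 named by ARID1A and ARID1B, 7 by ARID1A and ARID2 and 5 by ARID1B and ARID2. The same split over all names is not given here, so neither count is read as a trait of its class. The ARID1A and ARID2 lists were longer than the ARID1B list, and this pair made up 70.2% of all merged regions with 2 ARIDs.

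LINC genes also held more peaks per gene at the upper end. The median was 2 peaks per gene in both classes. Genes with more than 4 peaks numbered 15 among LINC genes and held 60.2% of the LINC peaks, against 11 among -AS genes with 25.4% of the -AS peaks and 41.9% of all peaks in names with more than 4. A gene with 1 peak in the 3 lists together was found for 20 of 62 LINC genes and 68 of 145 -AS genes, beside 39.8% of all names.

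The next question was where the peaks lay relative to the transcription start site (TSS). The promoter class used was the deposited one, which was narrower than the window around the TSS that the paper states. A C4A-AS1 peak at 997 bp was in it, and peaks of H1FX-AS1 at 1017 bp and of LINC00304 at 1035 bp were not. The authors' promoter class was assigned to 24 of 73 LINC peaks of ARID1A (32.9%, interval 23.2 to 44.3%) and to 90 of 118 -AS peaks (76.3%, interval 67.8 to 83.0%). The background over all ARID1A peaks was 72.6%. In the ARID2 list it was assigned to 30 of 83 LINC peaks (36.1%, interval 26.6 to 46.9%) and to 90 of 117 -AS peaks (76.9%, interval 68.5 to 83.6%), beside a background of 67.0%. In the ARID1B list it was assigned to 13 of 65 LINC peaks (20%, interval 12.1 to 31.3%) and to 22 of 72 -AS peaks (30.6%, interval 21.1 to 42.0%), beside 37.9%. The LINC share was thus below the -AS share in each of the 3 lists, while the -AS share was above the background in ARID1A and ARID2 and below it in ARID1B. The background lay inside the interval of the -AS share in ARID1A and ARID1B and below it in ARID2.

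The difference between the classes (LINC minus -AS) passed a two-sided Fisher exact test in the ARID1A and ARID2 lists. It was -43.4 percentage points in ARID1A (95% interval -55.2 to -29.2, odds ratio 0.152, adjusted p = 1.13e-08, exact) and -40.8 points in ARID2 (interval -52.4 to -27.1, odds ratio 0.170, adjusted p = 1.13e-08, exact). In ARID1B it was -10.6 points (interval -24.4 to 4.14, odds ratio 0.568, adjusted p = 0.174, exact) and did not pass. Whether the size of this difference itself differed between the lists was not tested. The naming class and the promoter class of a peak both rest on its nearest TSS, so they are not independent. The part of this naming in the differences was not tested. When 1 peak per gene and list was kept, the one nearest the TSS, the differences were -34.7, -8.91 and -30.9 points in ARID1A, ARID1B and ARID2.

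**Figure D1:**
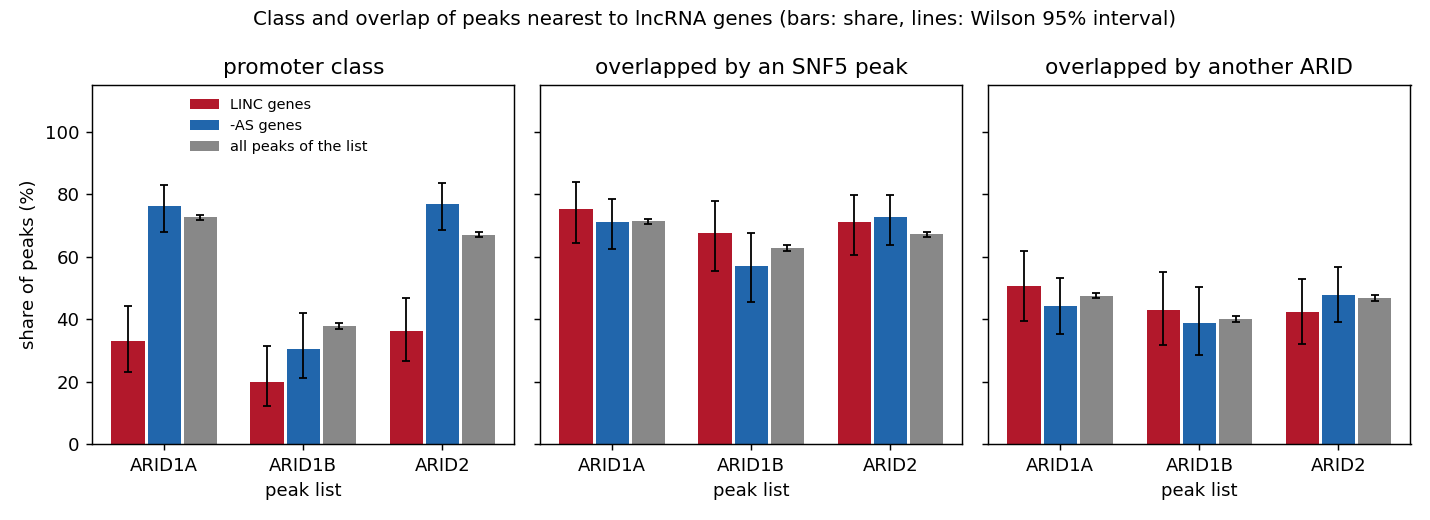
Share of peaks (%, vertical axis) in the promoter class, overlapped by an SNF5 peak and overlapped by another ARID, for LINC genes, -AS genes and all peaks of each of the 3 ARID lists. Bars are shares and lines are Wilson 95% intervals. The promoter bars of LINC and -AS genes lie far apart in ARID1A (32.9 and 76.3%) and ARID2 (36.1 and 76.9%), while the intervals of the classes overlap in both other panels.

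The distances the authors deposited showed the same order. In ARID1A the median distance from a peak to its nearest TSS was 2667 bp for LINC peaks (quartiles 326 and 9742 bp) and 206.5 bp for -AS peaks (quartiles 55.2 and 939 bp), beside 235 bp over the whole list. In ARID2 it was 2333 bp for LINC peaks and 249 bp for -AS peaks, beside 423 bp. In ARID1B it was 7947 bp for LINC peaks and 4850 bp for -AS peaks, beside 2636 bp. The -AS peaks of ARID1A and ARID2 therefore lay mostly at the start of the gene, and those of ARID1B did not. Peaks more than 10000 bp from the TSS made up 23.3% of LINC and 7.63% of -AS peaks in ARID1A, 36.9% and 40.3% in ARID1B, and 22.9% and 10.3% in ARID2. Peak width hardly separated the classes, with medians of 207 and 203.5 bp in ARID1A, 172 and 173.5 bp in ARID1B, and 166 and 177 bp in ARID2, LINC first.

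**Figure D2:**
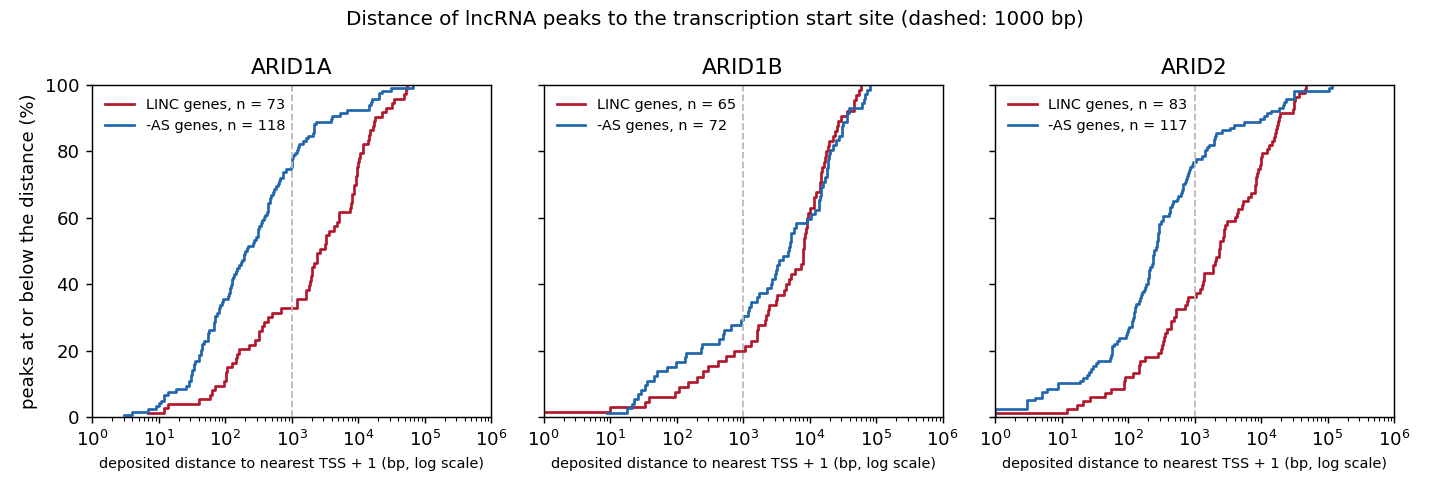
Cumulative share of peaks (%, vertical axis) by the deposited distance to the nearest TSS plus 1 (bp, log scale) for LINC and -AS genes in each ARID list. The curves lie apart at the dashed line of 1000 bp in ARID1A and ARID2, and run close together in ARID1B, where the medians were 7947 and 4850 bp.

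Since an -AS symbol names a sense gene, the position of that gene was asked next. Both positions were known for 139 of the 145 -AS genes. In all 139 the sense gene was protein coding and on the opposite strand, and in 117 (84.2%) the gene bodies overlapped. The nearest starts of the antisense and the sense gene were 286 bp apart in the median, and at most 1000 bp apart in 91 genes (65.5%). PROX1-AS1 and PROX1, a transcription factor of liver and lymphatic vessels, had starts 9 bp apart. PCBP1-AS1 and PCBP1, an RNA-binding protein, had starts 42 bp apart. MRPL23-AS1 and MRPL23, a protein of the mitochondrial ribosome, had starts 34416 bp apart, and DLGAP1-AS1 and DLGAP1, a postsynaptic scaffold protein, had the farthest starts of the named genes, 134931 bp apart.

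Most -AS promoter peaks lay near both starts. Among peaks of genes with both positions, 53 of 89 -AS promoter peaks of ARID1A (59.6%) were at most 1000 bp from the start of the sense gene, as were 13 of 20 (65.0%) in ARID1B and 60 of 89 (67.4%) in ARID2. Of the -AS peaks outside the promoter class, 0 of 27, 0 of 48 and 0 of 26 were. Since peaks were named for their nearest gene, a peak of an -AS gene that lay far from its start lay farther still from the sense start. The promoter share was higher by count where the starts were at most 1000 bp apart, at 87.3% against 60% in ARID1A, 41.7% against 15.6% in ARID1B and 85.2% against 58.8% in ARID2. A peak of the same list was also assigned to the sense gene itself for 44 of 85 -AS genes in ARID1A, 26 of 55 in ARID1B and 41 of 85 in ARID2.

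The assignment to the antisense or the sense gene often changed between lists at the same place. Among 108 pairs of overlapping peaks from 2 lists with an -AS gene on at least 1 side, 34 (31.5%) had different nearest genes, and in 27 of these the other gene was the sense partner. For LINC genes the count was 7 of 81 pairs (8.64%), and over all 10956 overlapping pairs it was 771 (7.04%). At these places the gene a peak was named for depended on the list it came from.

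**Figure D3:**
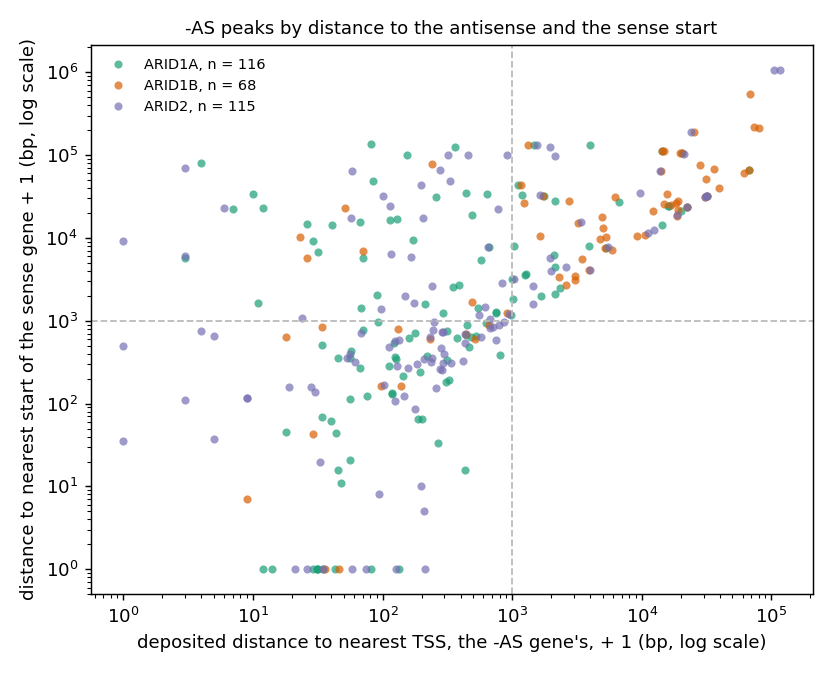
Distance of each -AS peak to its nearest TSS as deposited (bp plus 1, log scale, horizontal axis) and to the nearest start of the sense gene (bp plus 1, log scale, vertical axis), with 1 point per peak and colour by ARID list. Dashed lines mark 1000 bp, and the upper left field holds promoter peaks of -AS genes whose sense gene starts farther away.

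LINC peaks lay far from protein-coding starts, which the rule itself favours. Since peaks were named for their nearest gene, most peaks close to a coding start were named for the coding gene. The background below includes those peaks, so its contrast with the LINC share is not a separate result. The median distance from a LINC peak to the nearest protein-coding start was 34703 bp in ARID1A, 61814 bp in ARID1B and 28058 bp in ARID2, against 656.5, 10686 and 642 bp for -AS peaks. Within 1000 bp of a protein-coding start lay 7 of 73 LINC peaks of ARID1A (9.59%) and 66 of 118 -AS peaks (55.9%), beside a background of 69.3%. For ARID1B the shares were 4.62% and 22.2%, beside 33.7%. For ARID2 they were 10.8% and 61.5%, beside 64.0%. LINC00449 was an exception among the named genes. Its ARID1A, ARID1B and ARID2 peaks in 1 merged region were classed as distal at 2038 to 2393 bp from the LINC00449 TSS, yet lay 0 to 30 bp from the start of TM9SF2, a membrane protein of endosomes, and under an SNF5 peak with a score of 43.

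Overlap with SNF5, the core subunit, did not separate the classes. An SNF5 peak shared at least 1 bp with 55 of 73 LINC peaks of ARID1A (75.3%, interval 64.4 to 83.8%) and with 84 of 118 -AS peaks (71.2%, interval 62.4 to 78.6%), beside a background of 71.3%. For ARID1B the shares were 67.7% of 65 LINC peaks and 56.9% of 72 -AS peaks, beside 62.9%. For ARID2 they were 71.1% of 83 LINC peaks and 72.6% of 117 -AS peaks, beside 67.2%. The differences (LINC minus -AS) were 4.16 points in ARID1A (interval -9.09 to 16.3, adjusted p = 0.873, exact Fisher test), 10.7 points in ARID1B (interval -5.45 to 26.1, adjusted p = 0.661, exact) and -1.57 points in ARID2 (interval -14.3 to 10.7, adjusted p = 0.873, exact). Differences of up to about 16, 26 and 14 points in size lie inside these intervals. The sign changed in ARID1A under a reciprocal overlap of at least 50% and in ARID2 with high-scoring SNF5 peaks alone, without passing the test.

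Overlap with another ARID gave the same picture. It was found for 37 of 73 LINC peaks of ARID1A (50.7%, interval 39.5 to 61.8%) and 52 of 118 -AS peaks (44.1%, interval 35.4 to 53.1%), beside a background of 47.6%. For ARID1B it was found for 43.1% of LINC and 38.9% of -AS peaks, beside 40.1%, and for ARID2 for 42.2% and 47.9%, beside 46.9%. The differences were 6.62 points in ARID1A (interval -7.76 to 20.7, adjusted p = 0.709, exact Fisher test), 4.19 points in ARID1B (interval -12.0 to 20.2, adjusted p = 0.728, exact) and -5.69 points in ARID2 (interval -19.2 to 8.21, adjusted p = 0.709, exact). Their direction depended on the overlap rule and on counting 1 peak per gene.

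In the ARID1A and ARID2 lists, overlap with ARID1B was more frequent by count for LINC than for -AS peaks. ARID1B peaks overlapped 23 of 73 LINC peaks of ARID1A (31.5%) and 19 of 118 -AS peaks (16.1%), beside 20.9% of all ARID1A peaks. ARID1B peaks overlapped 21 of 83 LINC peaks of ARID2 (25.3%) and 15 of 117 -AS peaks (12.8%), beside 18.1%. ARID2 peaks overlapped 42.5% of LINC and 39.0% of -AS peaks of ARID1A, beside 40.4%. These differences were not tested, and the intervals of the LINC and -AS shares with ARID1B overlapped slightly in both lists (22.0 to 42.9% and 10.6 to 23.8% in ARID1A, 17.2 to 35.6% and 7.93 to 20.1% in ARID2).

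Within a feature class the counts were small. Among intronic peaks, SNF5 overlapped 18 of 21 LINC peaks (85.7%, interval 65.4 to 95%) and 11 of 16 -AS peaks (interval 44.4 to 85.8%) in ARID1A, beside 64.4% of all intronic peaks of that list. In ARID2 it overlapped 20 of 23 intronic LINC peaks (87.0%, interval 67.9 to 95.5%) and 14 of 22 intronic -AS peaks (interval 43.0 to 80.3%), beside 57.6%, whereas in ARID1B it overlapped 12 of 22 and 18 of 37, beside 54.0%. The share over all intronic peaks lay below the interval of the LINC share in ARID1A and ARID2 and inside it in ARID1B, which is a description of these lists and was not tested. LINC00511 alone held 8 of the 21, 8 of the 22 and 7 of the 23 intronic LINC peaks of ARID1A, ARID1B and ARID2. Among promoter peaks, SNF5 overlapped 18 of 24 LINC and 67 of 90 -AS peaks in ARID1A, 11 of 13 and 15 of 22 in ARID1B, and 19 of 30 and 69 of 90 in ARID2, beside 73.5%, 77.2% and 70.5% of all promoter peaks. Peaks overlapped by SNF5 were wider in each list and class. In ARID1A the median width was 246 bp for LINC peaks with an SNF5 peak and 123.5 bp for those without, and 249 and 136 bp for -AS peaks. The part of peak width in these shares was not tested.

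Counted as merged regions, in which peaks that share at least 1 bp are joined, the LINC peaks formed 160 regions and the -AS peaks 242. A peak of all 3 ARIDs was present in 19 LINC regions (11.9%) and 20 -AS regions (8.26%), beside 7.55% of the 25247 regions of the whole series. Peaks of 2 ARIDs were present in 20 LINC regions (12.5%) and 51 -AS regions (21.1%), beside 17.8% of all regions. Peaks of 1 ARID alone were present in 121 (75.6%) and 171 (70.7%), beside 74.7%. The combination of ARID1A and ARID2 made up 40 of the 51 -AS regions with 2 ARIDs (78.4%) and 11 of the 20 LINC regions, beside 70.2% of all regions with 2 ARIDs. An SNF5 peak touched all 19 LINC and all 20 -AS regions with 3 ARIDs, beside 97.4% of all regions with 3, and 18 of 20 and 45 of 51 with 2, beside 87.3%. Of the regions with 1 ARID, it touched 63 of 121 LINC and 90 of 171 -AS regions, beside 49.7%. The shares of member regions touched by SNF5 were thus close to those of all regions. In 14 of the 19 LINC regions and 15 of the 20 -AS regions with all 3 ARIDs some bases were shared by all 3, with a median stretch of 99.5 and 136 bp. In the others the peaks met in a chain, as at ZNF503-AS2.

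The authors' peak score, a whole number given for SNF5 peaks, had a median of 22 for the 69 SNF5 peaks over LINC peaks and of 21 for the 122 over -AS peaks. Over any ARID peak the median was also 22, and over all 20718 SNF5 peaks it was 19. The highest score was 43 over a LINC peak, at LINC00449, and 48 over an -AS peak, at PCBP1-AS1. No SNF5 overlap at any of their peaks was found for 17 of 62 LINC genes (27.4%) and 42 of 145 -AS genes (29.0%), beside 30.6% of all 12428 names.

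LINC00511, an lncRNA studied in several tumours, was nearest to 29 peaks, the most of any member, with 10 peaks in ARID1A, 10 in ARID1B and 9 in ARID2. It spans chr17:70286232-70636611 on the minus strand (350380 bp). The gene held 33 ARID peaks, of which the other 4 were named for another gene. Its ARID peaks lay 47.4 to 241.2 kb downstream of the annotated 5′ end and formed 21 regions, of which 16 held 1 ARID, 3 held 2 and 2 held all 3. SNF5 overlapped 22 of the 29, and 5 of the 29 were in the promoter class, next to internal starts by the deposited distances. Gencode v44, which gave the span and the 5′ end, places further starts in the gene. An intronic ARID2 peak with a deposited distance of 31699 bp, for example, lay 100 bp from a Gencode v44 start. The gene held 26 SNF5 peaks with a median score of 16.5 and a highest score of 41. That highest score lay over the region at chr17:70395380-70396677, where all 3 ARIDs met in an intron. The ARID peaks of this region lay 14393 to 14991 bp from the nearest TSS as deposited, and 7032 to 8004 bp from a Gencode v44 start. LINC00511 contributed 13.7%, 15.4% and 10.8% of the LINC peaks of ARID1A, ARID1B and ARID2. Without it the promoter differences between the classes were -41.4, -8.74 and -39.1 points.

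**Figure D4:**
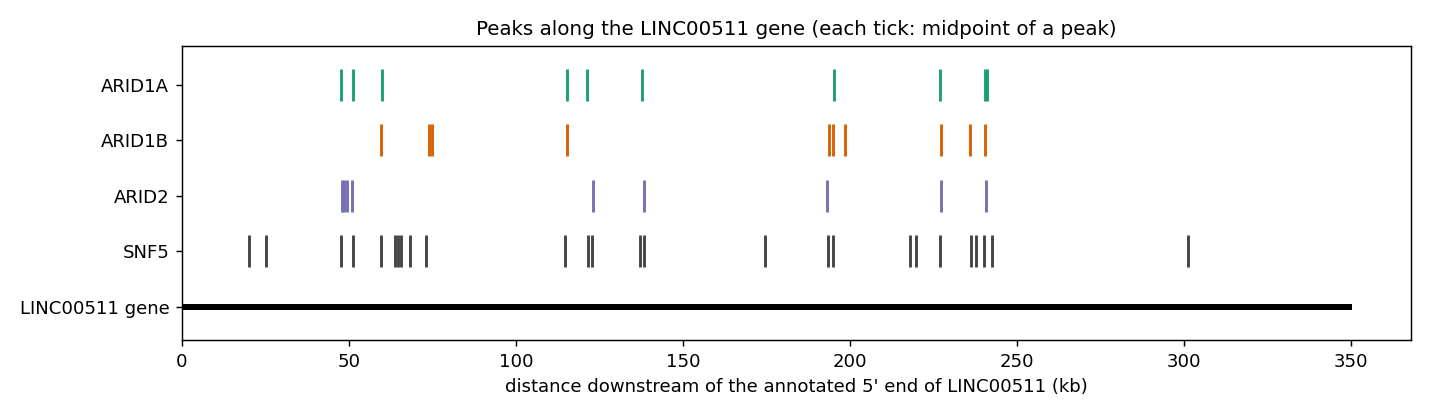
Midpoints of the ARID1A, ARID1B and ARID2 peaks named for LINC00511 and of the SNF5 peaks inside it (1 tick each), by distance downstream of its annotated 5′ end (kb). The 29 ARID peaks fall in groups between 47.4 and 241.2 kb, with 10 ticks for ARID1A, 10 for ARID1B and 9 for ARID2.

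The other LINC genes with many peaks differed in where those peaks lay. LINC00261, an endoderm lncRNA that neighbours the hepatic transcription factor gene FOXA2, had 4 peaks in ARID1A, 2 in ARID1B and 4 in ARID2. Of these 10 peaks 7 were in the promoter class, 9 overlapped SNF5 and 8 overlapped another ARID, and they lay 5250 to 9576 bp from the nearest FOXA2 start. LINC00657, now called NORAD, a cytoplasmic RNA bound by PUMILIO proteins, had 1 peak in each list. All 3 lay over its start, at 20 to 126 bp, overlapped each other and lay under an SNF5 peak with a score of 26. LINC00607 had 3 peaks in each list, of which 8 of 9 overlapped SNF5 and 3 overlapped another ARID.

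LINC00854 and LINC00324 carried dense runs of peaks. LINC00854 had 6 peaks in ARID1A, 3 in ARID1B and 3 in ARID2, each classed as distal at 8634 to 17619 bp from the TSS, and 10 of the 12 overlapped another ARID. Its region with all 3 ARIDs lay under an SNF5 peak with a score of 41. LINC00324 had 6, 2 and 3 peaks, and 9 of the 11 overlapped SNF5, each under a peak with a score of 35. Its 2 regions with all 3 ARIDs lay 2310 to 3262 bp from the TSS.

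The remaining named LINC genes had at most 1 region with all 3 ARIDs each. LINC00844 had 0 peaks in ARID1A, 3 in ARID1B and 5 in ARID2, each distal at 4959 to 32129 bp, and 2 of the 8 overlapped another ARID. LINC00263, now OLMALINC, a neighbour of the fatty acid desaturase gene SCD, had 2, 1 and 4 peaks. An ARID1A and an ARID2 peak met at the TSS, 13 and 16 bp away, whereas its ARID1B peak lay 2133 bp away. LINC00152, now CYTOR, had 1, 1 and 3 peaks, of which 0 overlapped another ARID and 3 overlapped SNF5. LINC00184 had 3, 1 and 1 peaks, 8052 to 9708 bp from the TSS, and all 5 overlapped SNF5. LINC00299 had 3, 3 and 2 peaks, LINC00525 had 3, 2 and 3, and LINC00242 had 1, 2 and 3, and each had 1 region with all 3 ARIDs. LINC00467 had a single ARID1B peak, 147 bp from its TSS.

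**Figure D5:**
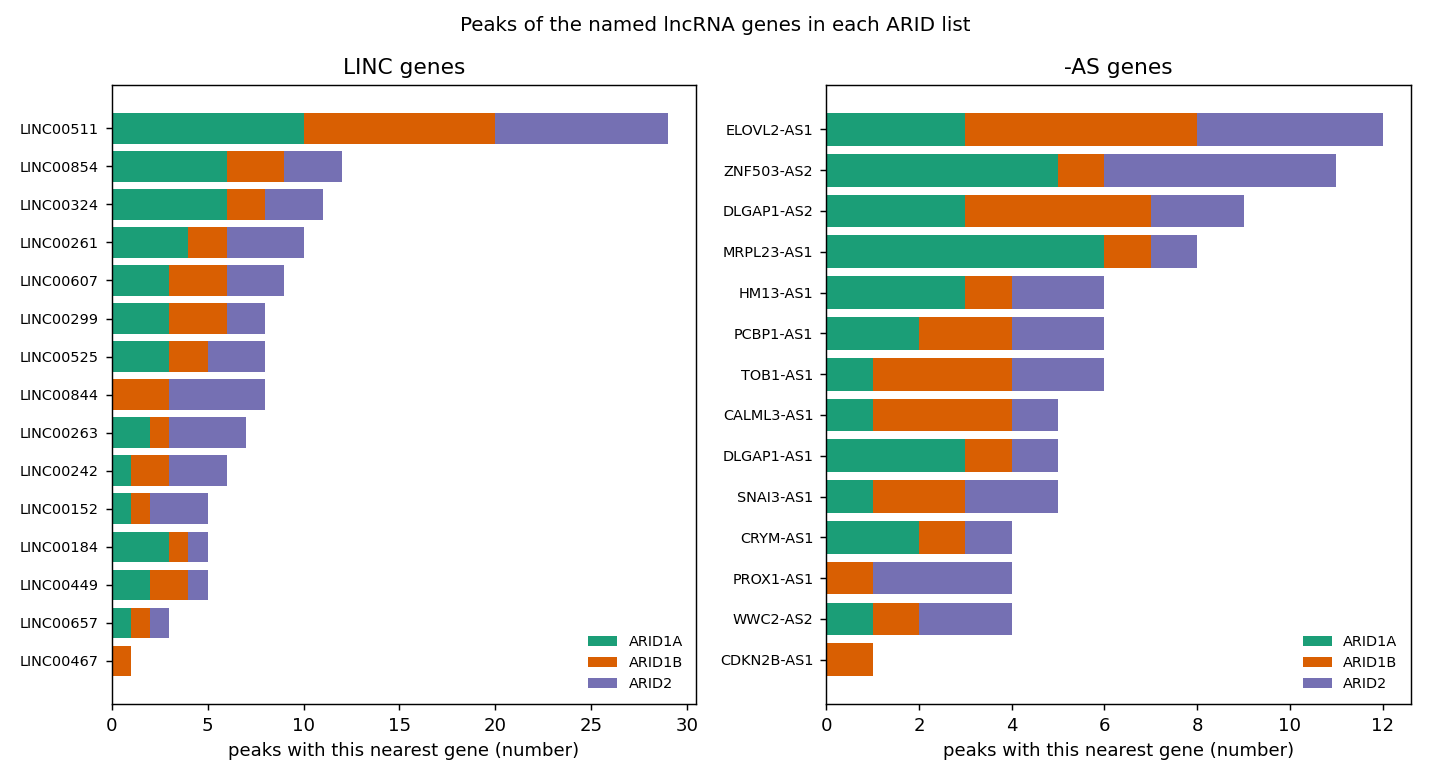
Number of peaks (horizontal axis) of each named LINC gene (left) and -AS gene (right), stacked by ARID list. LINC00511 stands out with 29 peaks, and ELOVL2-AS1 and ZNF503-AS2 lead the -AS genes with 12 and 11.

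Among -AS genes, ELOVL2-AS1, antisense to a fatty acid elongase gene, had 3 peaks in ARID1A, 5 in ARID1B and 4 in ARID2. Its starts and those of ELOVL2 were 208 bp apart. Of its 12 peaks 5 were in the promoter class, and 5 lay together 30871 to 31667 bp away in an intron of ELOVL2, where they formed 2 regions, each with 2 ARIDs. ZNF503-AS2, antisense to a zinc finger repressor gene, had 5 peaks in ARID1A, 1 in ARID1B and 5 in ARID2. All 11 overlapped another ARID and 9 overlapped SNF5. Its single ARID1B peak lay 5203 bp from the TSS, while 6 of the 10 others were promoter peaks. MRPL23-AS1 had 6 peaks in ARID1A and 1 each in ARID1B and ARID2. The ARID1B and ARID2 peaks met the same ARID1A peak in an intron, under an SNF5 peak with a score of 37.

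PCBP1-AS1 and HM13-AS1 held their peaks at or near the start. PCBP1-AS1 had 2 peaks in each list, all 6 in the promoter class at 28 to 286 bp, overlapping another ARID and under SNF5 peaks with a score of 48. HM13-AS1, antisense to the signal peptide peptidase gene HM13, had 3, 1 and 2 peaks, of which 5 were in the promoter class and 5 overlapped another ARID. All 6 lay under an SNF5 peak with a score of 42. TOB1-AS1, antisense to an antiproliferative gene, had 1, 3 and 2 peaks. All 3 ARIDs met at its start, and its other 2 ARID1B peaks lay 14745 and 19095 bp away with no ARID1A or ARID2 peak.

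Several -AS genes had distal or intronic peaks. DLGAP1-AS2 had 3, 4 and 2 peaks, of which 1 was in the promoter class and 2 of 9 overlapped another ARID. DLGAP1-AS1 had 3, 1 and 1 peaks, and the 3 ARIDs formed a chain 1312 to 1544 bp from its TSS. CALML3-AS1 had 1, 3 and 1 peaks, none in the promoter class, with all 3 ARIDs at 22375 to 22498 bp. SNAI3-AS1 had 1, 2 and 2 peaks, and all 3 ARIDs met over its start, beside a start of MVD, an enzyme of the mevalonate pathway. CRYM-AS1 had 2, 1 and 1 peaks, each in the promoter class, and WWC2-AS2 had 1, 1 and 2, and all 4 peaks of each gene overlapped another ARID. The ARID1B peak of WWC2-AS2 lay 18533 bp from the TSS, where an ARID2 peak met it.

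PROX1-AS1 and CDKN2B-AS1 had few peaks and none that overlapped another ARID. PROX1-AS1 had 0, 1 and 3 peaks, of which 2 of 4 overlapped SNF5. CDKN2B-AS1, also known as ANRIL, had a single ARID1B peak of 52 bp, 28132 bp from the TSS. Of the known lncRNAs listed for background, LINC00473, FOXD2-AS1, GATA6-AS1 and MCM3AP-AS1 were the nearest gene of 0 peaks. The lists give no limit of detection, so an absent peak does not show that a site was unbound.

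Finally, base composition and short motifs were read in 300 bp windows on peak midpoints. The median GC content was 53.7% for LINC and 63.5% for -AS peaks in ARID1A, beside 63.7%, 51.3% and 49.5% in ARID1B, beside 51.0%, and 51.0% and 58.3% in ARID2, beside 56.7%. Within the promoter class of ARID1A it was 62.5% for LINC and 65.3% for -AS peaks, beside 66.7%. The GC box (GGGCGG) was found on either strand in 26% of LINC and 43.2% of -AS windows of ARID1A, beside 53.1% of all its windows. In ARID1B it was found in 20% and 29.2%, beside 27.8%, and in ARID2 in 19.3% and 43.6%, beside 39.5%. The AP-1 motif (TGANTCA) was found in 16.4% of LINC and 5.08% of -AS windows of ARID1A, beside 6.49%, in 13.8% and 12.5% in ARID1B, beside 9.70%, and in 14.5% and 10.3% in ARID2, beside 6.87%. Over all feature classes LINC windows thus held the GC box in a smaller share and the AP-1 motif in a larger share than -AS windows in each list. The classes differed in promoter share, and within a feature class these orders did not all hold. Among promoter windows the GC box was in 45.8% of LINC and 48.9% of -AS windows in ARID1A, beside 63.9%, in 6 of 13 and 11 of 22 in ARID1B, beside 52.3%, and in 9 of 30 and 47 of 90 in ARID2, beside 51.4%. Outside promoters it was in 16.3% and 25% in ARID1A, beside 24.3%. The shares were 13.5% and 20% in ARID1B, beside 12.8%, and 13.2% and 14.8% in ARID2, beside 15.2%. Among promoter windows the AP-1 motif was in 3 of 24 LINC and 2 of 90 -AS windows in ARID1A, beside 4.41%. It was in 2 of 13 and 1 of 22 in ARID1B, beside 5.78%, and in 5 of 30 and 8 of 90 in ARID2, beside 4.86%. Outside promoters the AP-1 motif was in 18.4% of LINC and 14.3% of -AS windows in ARID1A, beside 12%. Its order turned in ARID1B, with 13.5% and 16%, beside 12.1%, and in ARID2, with 13.2% and 14.8%, beside 11%.

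The other 4 motifs were the NF-Y box (CCAAT), and the motifs of FOXA (TGTTTAC), TEAD (CATTCC) and ETS factors (CCGGAAG), and none of the 6 is contained in another. CCAAT was in 21.7 to 26% of LINC and 26.4 to 35.0% of -AS windows of the 3 lists, beside 26.6 to 29.8% of all windows. TGTTTAC was in 1.37 to 7.23% and 1.69 to 6.94%, beside 3.53 to 6.06%. CATTCC was in 9.59 to 16.9% and 9.32 to 20.5%, beside 12.5 to 16.3%. CCGGAAG was in 4.11 to 8.43% and 5.08 to 6.94%, beside 5.03 to 10.5%. Of the windows printed above, that of HM13-AS1 held 2 GC boxes, that of PCBP1-AS1 held 1, and that of LINC00324 held 1 TEAD motif, while those of LINC00511, LINC00854 and MRPL23-AS1 held 0 of the 6 motifs. A match is a run of letters and not a site shown to be bound.

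The chromatin state that the authors deposited for each ARID peak was not used to describe the members. Where a LINC or -AS peak of 1 list overlapped a peak of another, both had the same state in 30 of 52 pairs of ARID1A and ARID1B (57.7%), 51 of 95 pairs of ARID1A and ARID2 (53.7%) and 15 of 42 pairs of ARID1B and ARID2 (35.7%). The feature class matched in 96.2%, 98.9% and 97.6% of the same pairs. Over all overlapping pairs of the series the state matched in 42.9%, 51.4% and 38.3%, and the active promoter state was carried by 49.7% of distal and 67.2% of promoter peaks of ARID1A. The cause of these mismatches was not tested.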

How the data were processed

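Binding of 4 SWI/SNF subunits was measured by ChIP-seq in HepG2, and 1 deposited peak list per subunit was used, grouped by the antibody in the labels. Per the study's methods, the authors mapped single-end reads on hg19 with bowtie2, discarded duplicates, pooled the replicates, called broad peaks with MACS2, joined neighbouring peaks and dropped blacklisted regions. The deposited ARID columns give boundaries, feature class, nearest Gencode gene, distance, overlap label and chromatin state. The score that the authors deposited for SNF5 peaks is a whole number, used here as given. No counts were used, so depth enters no interval.

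Coordinates count from 1. Of 518 member peaks with a matched gene, the distance from the peak midpoint to a Gencode v44 start was within 100 bp of the deposited one in 393 (75.9%). Of the 207 names, 199 were matched, 40 of them through RefSeq synonyms. Sequences came from the GRCh37 genome. An overlap was at least 1 bp. For each list, LINC and -AS shares were set against each other by a two-sided Fisher exact test (scipy 1.17.1), with 3 tests per family adjusted by Benjamini-Hochberg, a threshold of 0.05 and a check on simulated data. Intervals of differences combine the Wilson limits. The members and gene lists were chosen with earlier results of these data known. Named per class were the genes nearest to a peak in all 3 lists (at most 12, those with the most peaks), the 3 genes with the most peaks in each list, and a set of known lncRNAs. The chromatin state was left out after its match between lists was seen. Results for some items are not reported here.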

Additional observations from a re-analysis of the deposited data

How the results depend on the processing

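The 48 recomputed values comprised 39 under other settings and 9 without LINC00511, the latter chosen after seeing the data. Of these, 39 kept their direction and side of the threshold, or for counts stayed within 1.5 times. The promoter difference kept both in every alternative run, over a range of -28.3 to -41.4 points in ARID1A and -29.7 to -39.1 points in ARID2. The sign of 6 overlap differences (LINC minus -AS) changed, and none of these passed the test under any setting. Under a reciprocal overlap of at least 50% the SNF5 difference was -0.580 points in ARID1A, and the difference in overlap with another ARID was -1.88 points in ARID1A and 0.432 points in ARID2. With SNF5 peaks scored at or above the median of 19, the SNF5 difference in ARID2 was 7.80 points. With 1 peak per gene and list, the difference in overlap with another ARID was -2.17 points in ARID1B and 4.65 points in ARID2. Merging across gaps of at most 1000 bp left 56 LINC and 92 -AS regions with 1 ARID, and 38 -AS regions with all 3, fewer and wider regions by construction. No paired analysis was possible because each antibody has 1 list called on merged replicates. For the same reason no replicate could be left out, and a weak site cannot be told from an unbound one.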

Other observations

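The neighbourhood of tRNA and snRNA genes was looked up for the member genes. RefSeq (GRCh38.p14, used for gene order alone) places a tRNA or snRNA gene within 10000 bp of 4 of the 61 LINC genes it matched and of 3 of the 139 -AS genes. These were 6.56% and 2.16% of the matched genes, beside 178 of all 9848 matched nearest-gene names (1.81%). Only 79.2% of the 12428 names were matched, the counts are small, and the difference was not tested. RefSeq places 4 tRNA genes inside LINC00324 (TRW-CCA1-1, TRG-TCC3-1, TRD-GTC2-11 and TRP-CGG1-3), and the snRNA gene RNU2-1 with 2 further snRNA genes near LINC00854, which it names CCDC200. LINC00324 had 2 regions with all 3 ARIDs, and LINC00533 and LINC00854 had 1 each, of the 19 such LINC regions. LINC00533, with 3 tRNA genes nearby, had 1 peak in each list, and all 3 overlapped SNF5 and another ARID. AGBL5-AS1, beside the tRNA genes TRY-GTA2-1 and TRA-AGC8-1, had peaks in ARID1B and ARID2 in 1 of the 20 -AS regions with all 3 ARIDs, in which the ARID1A peaks were named for another gene. TMPO-AS1, PROX1-AS1 and LINC00623, also beside such a gene, had 0. These neighbours were looked for after the LINC00324 peaks had been seen. Whether a peak covers a small RNA gene was not read, and no test was made.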
